A study of Homo sapiens with 3 samples.

Results

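The nuclear genes for the subunits of the respiratory chain and the ATP synthase were examined in total RNA of H9 cells, an established human embryonic stem cell line. Members were the protein-coding genes of GENCODE release 44 whose symbols name a subunit of complexes I to V, that is the NDUFA, NDUFB, NDUFC, NDUFS and NDUFV genes without the NDUFAF assembly factors, SDHA to SDHD, the UQCR genes and CYC1, the COX4 to COX8 genes, and the ATP5F1, ATP5M and ATP5P genes. This rule found 89 genes among 19629 protein-coding genes with counts. The libraries were made from 3 replicates of wild-type, untreated cells after depletion of ribosomal RNA, and the values deposited for each are whole numbers of reads per gene. The labels do not say whether the replicates were separate cultures, so the spread between them may be technical. With a single state of the cells, no groups were compared. Since the RNA was taken from bulk cells, fewer cells of a type and less RNA per cell cannot be told apart.

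The respiratory chain sits in the inner mitochondrial membrane, where complex I (NADH dehydrogenase) and complex II (succinate dehydrogenase) feed electrons through ubiquinone to complex III, which passes them through cytochrome c to complex IV (cytochrome c oxidase). Complexes I, III and IV pump protons, and complex V, the ATP synthase, uses the gradient to make ATP. Most subunits are encoded in the nucleus and imported, while a few hydrophobic core subunits are encoded by the mitochondrial genome. Complex II is wholly nuclear. Several subunits of complex IV exist as pairs of a widely expressed gene and a gene used in heart and skeletal muscle, lung or testis.

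The libraries held 10390984, 12024802 and 8655155 counts in replicates 1, 2 and 3. All 5 pluripotency markers examined had mean levels from 275 to 2576 TPM (transcripts by length, here reads per base of the merged exons of a gene, scaled so that every library sums to the same value). The markers of the tissues in which the isoforms are used were near 0. Their summed level was between 0.135 and 0.781 TPM over the 5 heart and skeletal muscle markers, between 0.187 and 0.563 TPM over the 3 lung markers, and between 0.0863 and 0.186 TPM over the 4 testis markers.

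The members held 72310, 85145 and 59614 reads in replicates 1, 2 and 3, or 0.698 ± 0.00976% of all counts (SD, n = 3). On the TPM scale they held 1.19 ± 0.0323% of the transcripts (SD, n = 3). The median member had 67.3 TPM, and the median protein-coding gene had 7.10 TPM. After the study's methods, a gene under 0.01 TPM counted as nonexpressed, and the other protein-coding genes were split into 3 quantiles, with boundaries at 3.35 and 27.0 TPM. Of the 89 members, 66 fell in the high class, which held 28.8% of all protein-coding genes. A further 13 were medium, 5 low and 5 nonexpressed. When each replicate was classified alone, 83 of the 89 received the same class 3 times (93.3%), as did 87.4% of all protein-coding genes. UQCR11 (29.4 TPM), NDUFV3 (30.1 TPM) and ATP5PO (30.1 TPM) lay just above the upper boundary and were medium in replicate 3. NDUFC2 (26.4 TPM), NDUFA5 (22.3 TPM) and NDUFB9 (20.5 TPM) lay just below it. The low and nonexpressed classes held tissue isoforms, intronless copies and a read-through gene, and no other member. The remaining 77 genes, without isoform and read-through genes, had a median of 92.3 TPM and a lowest level of 3.72 TPM.

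**Figure D1:**
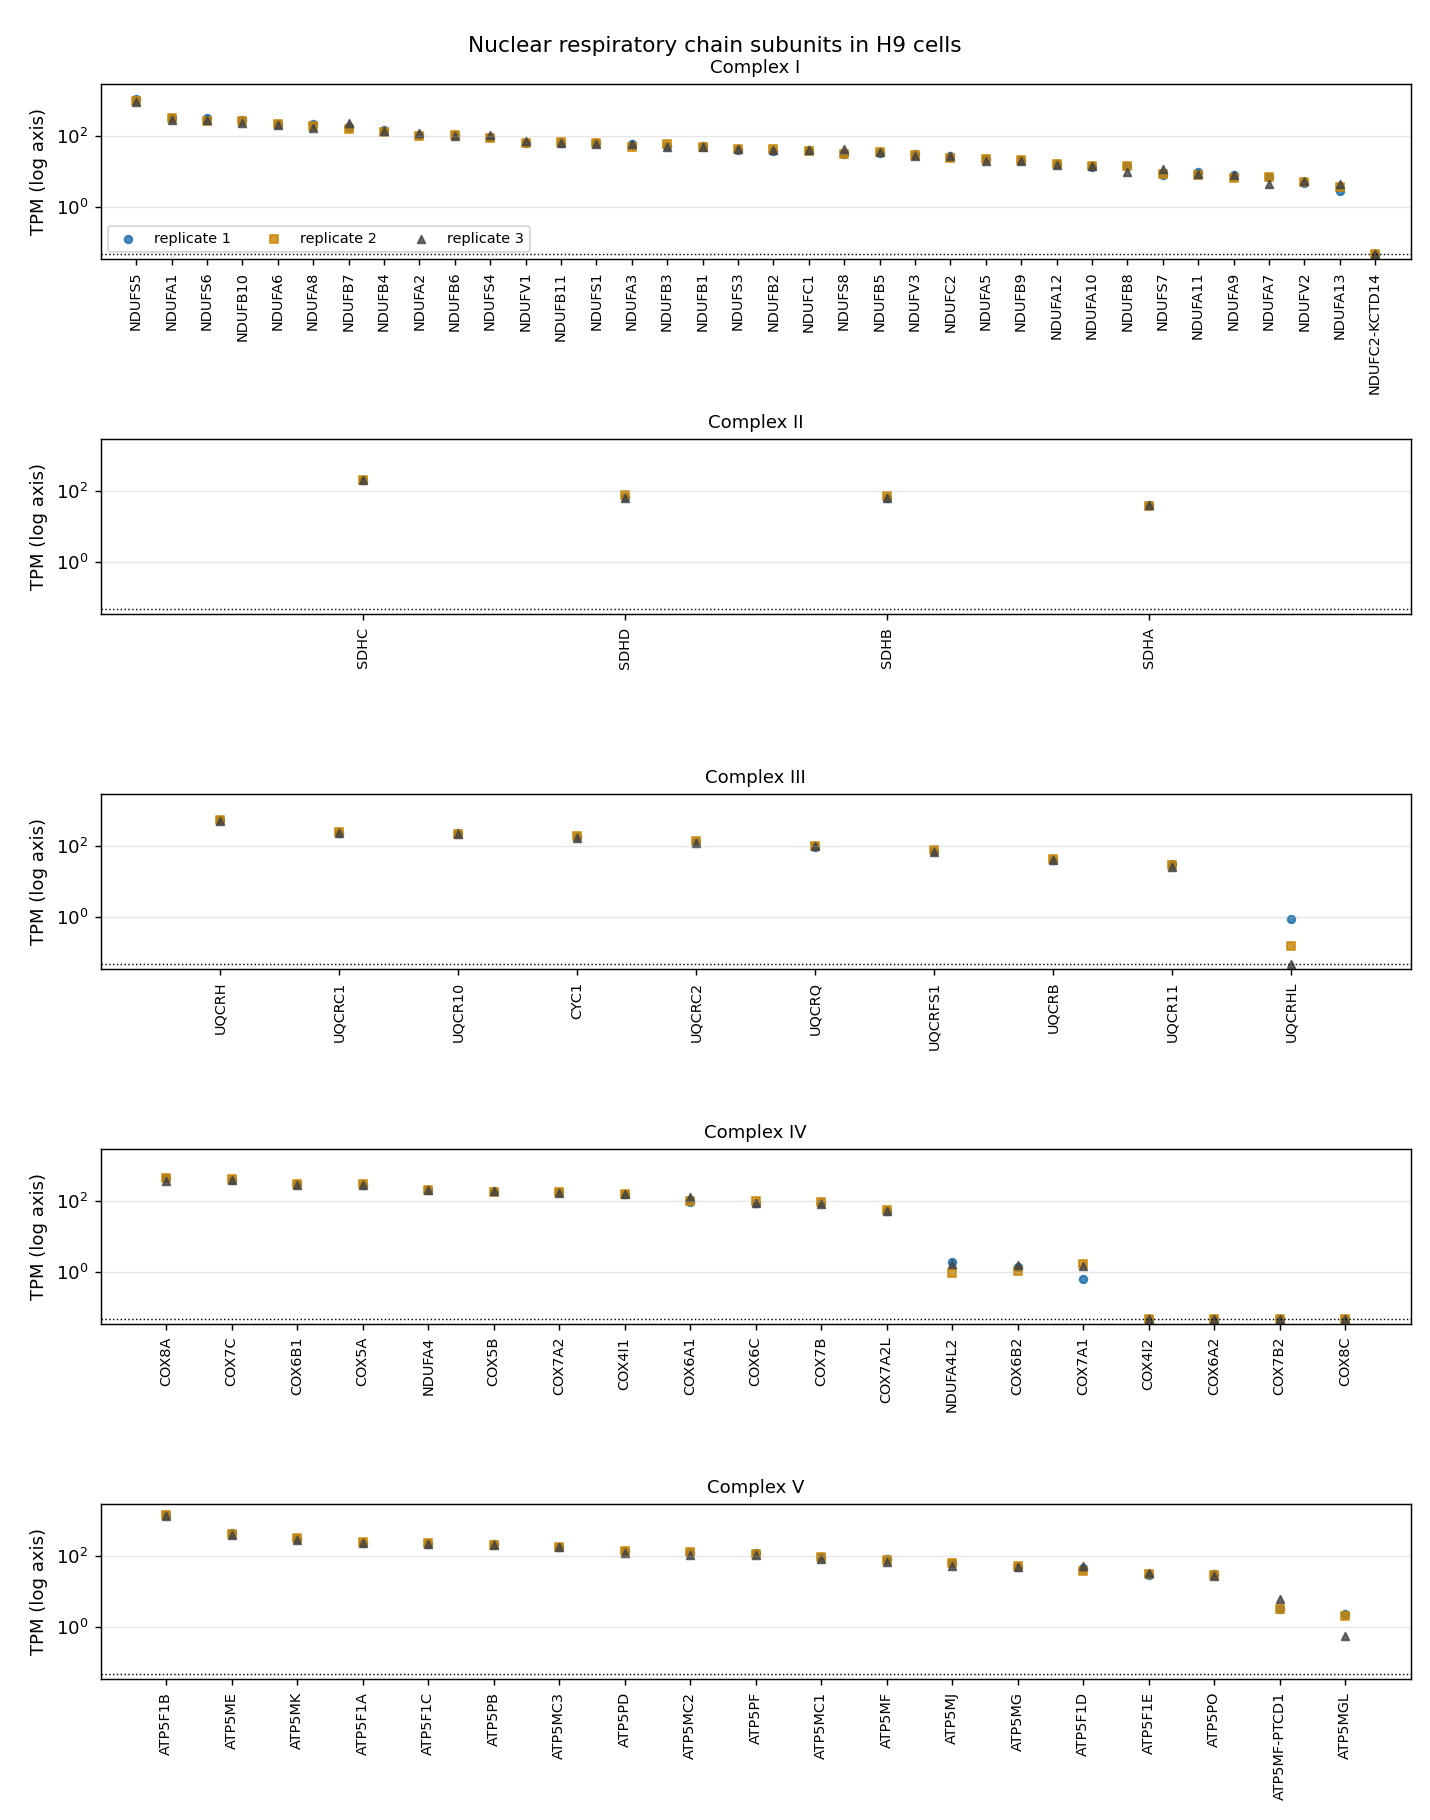
Level of the members reported here in each replicate in TPM on a log axis, with a panel for each complex and genes ordered by their mean. Points of the 3 replicates lie close together for most genes, values of 0 are drawn on the dotted line, and the genes at the right end of the complex IV panel are the tissue isoforms without reads.

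Complex V held the highest member. ATP5F1B, the catalytic beta subunit of the F1 head (ENSG00000110955, chromosome 12, 56638175 to 56645984, minus strand, GRCh38), had 1427, 1483 and 1388 TPM in replicates 1, 2 and 3, a mean of 1432 ± 47.5 TPM (SD, n = 3). It alone held 12% of the TPM of all members, and the 5 highest members together held 31.9%. The alpha subunit ATP5F1A, which alternates with beta in the head, had 242, 254 and 239 TPM, and the 3 replicates of the genes did not overlap. The other subunits of the head and central stalk were ATP5F1C (gamma, 225 ± 4.00 TPM), ATP5F1D (delta, 45.9 ± 6.61 TPM) and ATP5F1E (epsilon, 31.5 ± 1.71 TPM; SD, n = 3). The peripheral stalk, which holds the head still, ranged from ATP5PO at 30.1 TPM to ATP5PB at 212 TPM. Among the small membrane subunits, ATP5ME (424 ± 27.1 TPM) and ATP5MK (305 ± 14.4 TPM; SD, n = 3) were the highest. The 19 members of the complex had a median of 116 TPM, and 17 were in the high class.

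The c subunit forms the rotor ring of the ATP synthase and is encoded by 3 genes, whose precursors differ in the import sequence and give the same mature protein. The ends of their coding sequences are shown to compare how far the 3 genes differ in this stretch. Each is the last 225 bases before the stop codon, read from GRCh38 by the exons of the canonical transcript, with capitals where ATP5MC1 or ATP5MC2 differs from ATP5MC3. The stretch of ATP5MC1 lies within chr17:48895222-48895766 on the plus strand, that of ATP5MC2 within chr12:53665317-53669260 on the minus strand, and that of ATP5MC3 within chr2:175178291-175179169 on the minus strand.
ATP5MC1: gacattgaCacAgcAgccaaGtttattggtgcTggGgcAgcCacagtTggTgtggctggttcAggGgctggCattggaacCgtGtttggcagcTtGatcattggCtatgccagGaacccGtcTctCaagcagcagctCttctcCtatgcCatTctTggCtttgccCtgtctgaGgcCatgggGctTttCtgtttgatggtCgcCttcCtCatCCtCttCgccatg
ATP5MC2: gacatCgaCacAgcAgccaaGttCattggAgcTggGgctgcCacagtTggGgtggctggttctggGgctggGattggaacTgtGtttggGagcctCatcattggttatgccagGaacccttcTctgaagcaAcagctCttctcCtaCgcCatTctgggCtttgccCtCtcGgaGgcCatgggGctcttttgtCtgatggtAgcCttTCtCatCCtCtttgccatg
ATP5MC3: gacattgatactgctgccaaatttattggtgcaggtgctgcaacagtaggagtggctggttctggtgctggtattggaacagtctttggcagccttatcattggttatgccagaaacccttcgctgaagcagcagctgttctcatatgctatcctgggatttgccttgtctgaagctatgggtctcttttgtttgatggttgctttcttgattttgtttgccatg
ATP5MC1 and ATP5MC3 differed at 42 of these 225 bases, of which 38 lay at the last position of a codon, and ATP5MC2 and ATP5MC3 also differed at 42, again 38 of them at that position. ATP5MC1 and ATP5MC2 differed at 25, of which 23 lay there. The longest stretch that any pair shared was 17 bases, so no word of 50 bases from this end was common to them.

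All 3 c subunit genes were in the high class. ATP5MC3 had 187, 187 and 177 TPM, ATP5MC2 had 123, 131 and 112 TPM, and ATP5MC1 had 97.1, 94.6 and 86.1 TPM in replicates 1, 2 and 3. The order was the same in each replicate and the genes did not overlap. Of their summed TPM, ATP5MC3 gave 46.2 ± 0.927%, ATP5MC2 gave 30.6 ± 1.03% and ATP5MC1 gave 23.2 ± 0.522% (SD, n = 3). With coding length in place of the union of exons, the shares were 49.3%, 33.2% and 17.5%. By the canonical transcript the order changed, with ATP5MC2 at 455 TPM, ATP5MC1 at 226 TPM and ATP5MC3 the lowest at 166 TPM.

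Complex IV was split between widely expressed subunits and tissue isoforms. Without its isoform genes, the 11 nuclear subunits had a median of 186 TPM, and each was in the high class. COX8A (421 ± 33.8 TPM) and COX7C (398 ± 12.9 TPM; SD, n = 3) led, and COX7B had the lowest level of the 11 at 89.3 TPM. NDUFA4, named for complex I and since placed in complex IV, had 208 ± 3.76 TPM (SD, n = 3). COX7A2L, a relative of COX7A2 known for joining complexes III and IV into supercomplexes, had 54.9 ± 1.98 TPM (SD, n = 3). Counting COX7A2L as an isoform, the other 7 isoform genes of the complex were low or nonexpressed.

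COX4I2, the lung form of COX4 (ENSG00000131055, chromosome 20, 31637912 to 31645006, plus strand), had 0 reads in all 3 replicates. Its partner COX4I1 had 1994, 2401 and 1682 reads. A count of 0 allows up to 3 counts, which for COX4I2 is between 1.48 and 2.02 TPM in a single library, and COX4I1 was at least 77.9-fold higher in each. The muscle form COX6A2 and the testis forms COX7B2 and COX8C also had 0 reads in every replicate. On the same basis COX6A1 was at least 40.3-fold, COX7B at least 50.7-fold and COX8A at least 153-fold higher in each library, on the TPM scale. These 4 genes and the read-through gene NDUFC2-KCTD14 make 5 of 89 members without a read, and 13.5% of all protein-coding genes had none.

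The remaining tissue isoforms had a few reads. The testis form COX6B2 had 14, 12 and 13 reads, and COX6B1 had 1061, 1286 and 857. COX6B2 made 0.460 ± 0.108% of the TPM of the pair (SD, n = 3). NDUFA4L2, a form induced by low oxygen in other cells, had 14, 8 and 11 reads and made 0.740 ± 0.260% of its pair with NDUFA4 (SD, n = 3). The muscle form COX7A1 had 1, 3 and 2 reads, at or under the 3 counts that a count of 0 allows, and COX7A2 had 917, 1091 and 719. In every pair and every replicate the widely expressed gene was the higher one. COX6B2 also shares 29.9% of its canonical transcript with another annotated gene on the same strand.

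**Figure D2:**
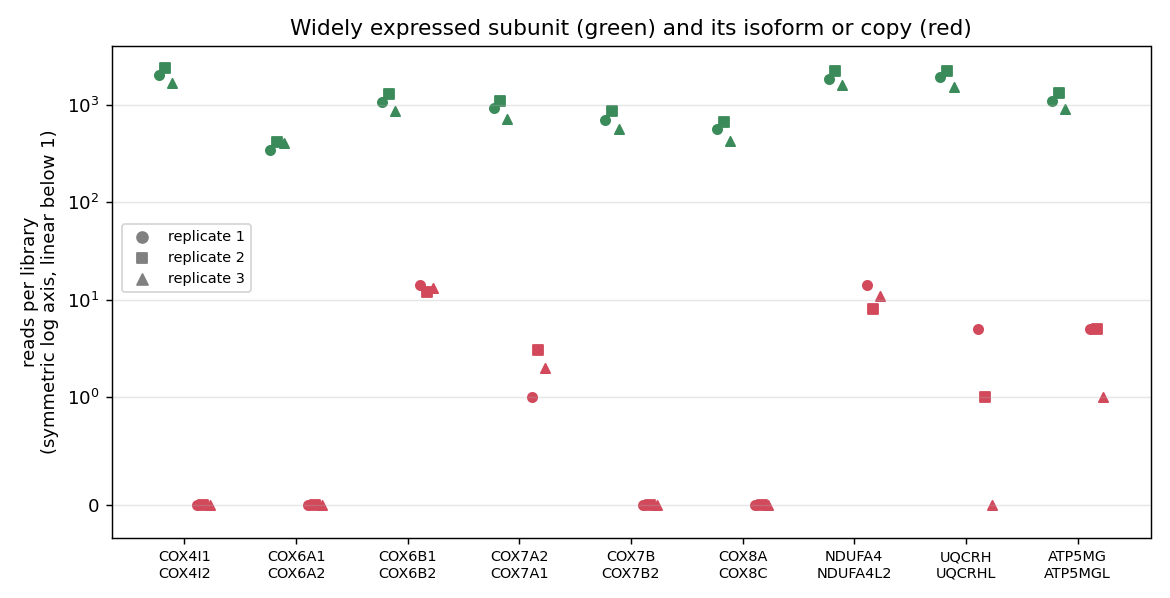
Reads per library on each widely expressed subunit (green, upper name) and on its tissue isoform or intronless copy (red, lower name), on a symmetric log axis that is linear below 1. The green points lie between 342 and 2401 reads, and the red points lie at 14 reads or below in each of the 3 replicates.

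Complex III had 10 members with a median of 116 TPM. The hinge protein UQCRH, which helps cytochrome c dock (ENSG00000173660, chromosome 1, 46303698 to 46316776, plus strand), was the highest at 550, 543 and 506 TPM. The core proteins UQCRC1 and UQCRC2, which face the matrix, had 245 ± 7.73 and 133 ± 5.36 TPM (SD, n = 3). The electron carriers of the complex that are encoded in the nucleus are cytochrome c1 (CYC1), at 183 ± 9.88 TPM, and the Rieske iron-sulfur protein (UQCRFS1), at 73.1 ± 3.40 TPM (SD, n = 3). UQCR11 was the lowest member of the complex apart from UQCRHL, at 29.4 ± 3.25 TPM (SD, n = 3).

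UQCRHL is an intronless copy of UQCRH on the same chromosome (ENSG00000233954, chromosome 1, 15807169 to 15809348, minus strand). The coding sequences of both are shown because they are nearly the same, so that reads of the abundant gene could be taken for the copy. They were read from GRCh38 by the canonical transcripts, within chr1:46303767-46316584 on the plus strand for UQCRH and at chr1:15807374-15807649 on the minus strand for UQCRHL, with the bases at which they differ in capitals.
UQCRH: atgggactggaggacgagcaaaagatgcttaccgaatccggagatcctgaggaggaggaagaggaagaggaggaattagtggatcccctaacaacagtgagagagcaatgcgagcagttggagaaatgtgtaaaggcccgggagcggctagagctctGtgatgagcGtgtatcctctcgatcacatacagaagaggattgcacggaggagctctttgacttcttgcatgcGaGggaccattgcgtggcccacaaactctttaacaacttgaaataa
UQCRHL: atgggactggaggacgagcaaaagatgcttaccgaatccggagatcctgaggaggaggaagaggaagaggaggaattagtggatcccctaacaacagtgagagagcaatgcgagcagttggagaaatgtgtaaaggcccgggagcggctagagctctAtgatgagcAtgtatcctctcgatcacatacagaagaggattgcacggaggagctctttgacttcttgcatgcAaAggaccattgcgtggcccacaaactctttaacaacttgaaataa
The sequences of 276 bases differed at 4 bases and shared a stretch of 157 bases. UQCRHL had 5, 1 and 0 reads in replicates 1, 2 and 3, and UQCRH had 1921, 2203 and 1507. UQCRHL made 0.0626 ± 0.0854% of the TPM of the pair (SD, n = 3), with an SD above its mean. The other intronless copy, ATP5MGL, had 5, 5 and 1 reads, and its parent ATP5MG had 1088, 1328 and 899. ATP5MGL made 3.18 ± 1.80% of the TPM of the pair (SD, n = 3), or 4.19% without replicate 3 and 4.08% with 1 read added to each gene. This share depended on the gene length used. It was 1.23% by the longest transcript, 0.441% by the canonical transcript and 0.324% by coding length.

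Complex II had 4 members, all in the high class. SDHC, a membrane anchor, had 208 ± 2.59 TPM, and SDHD, the other anchor, had 70.0 ± 9.33 TPM (SD, n = 3). The iron-sulfur subunit SDHB had 67.8 ± 4.54 TPM and the flavoprotein SDHA 40.4 ± 1.28 TPM (SD, n = 3). SDHC was above the other members in every replicate, by 5.15-fold over SDHA on the TPM scale. With coding length the same ratio was 4.40 and with the canonical transcript 2.32, and SDHB over SDHA moved from 1.68 to 1.12 and 1.25.

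Complex I was the largest, with 37 members, and had the lowest median of the 5 complexes, 41.7 TPM. NDUFS5, a small supernumerary subunit (ENSG00000168653, chromosome 1, 39026318 to 39034636, plus strand), was the second highest of all members at 1089, 978 and 926 TPM. The next in the complex were NDUFA1 (308 ± 21.6 TPM), NDUFS6 (295 ± 30.2 TPM) and NDUFB10 (265 ± 21.6 TPM; SD, n = 3). Among the core subunits that carry electrons from NADH to ubiquinone were NDUFV1, the NADH-binding flavoprotein (67.3 ± 6.75 TPM), NDUFS1 (62.7 ± 3.60 TPM), NDUFS3 (43.0 ± 2.53 TPM), NDUFS8 (35.6 ± 5.64 TPM), NDUFS7 (9.73 ± 2.21 TPM) and NDUFV2 (5.14 ± 0.334 TPM; SD, n = 3). NDUFV2 pairs with NDUFV1 in the enzyme. The libraries held 34, 42 and 33 reads on NDUFV2 and 853, 951 and 841 on NDUFV1. Of the NDUFV2 canonical transcript, 89.965% lies in exons of another gene on the same strand, against 0% for NDUFV1. The part of this overlap in the counts was not tested. By the union of exons the lowest member of the complex with a read was NDUFA13, also known as GRIM-19, at 3.72 TPM with 20, 30 and 28 reads. NDUFA7 had fewer reads (25, 30 and 14), by coding length NDUFV2 (5.55 TPM) lay below NDUFA13 (6.93 TPM), and by the canonical transcript NDUFA9 was the lowest at 5.77 TPM.

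The levels depended on the gene length used. The members are short genes, with a median canonical transcript of 758 bases against 2905 for all protein-coding genes, a median coding length of 390 bases against 1284, and a median of 4 exons against 8. In 31 of the 89, the union of exons was at least 3 times the canonical transcript, and in NDUFB9 it was 24 times as long. The same held for 1653 of the 19629 protein-coding genes. NDUFB9 had 20.5 TPM by the union of exons and 188 TPM by coding length, and NDUFA5, another supernumerary subunit of complex I, had 22.3 and 260 TPM. The median over all members was 67.3 TPM by the union of exons, 131 TPM by the canonical transcript and 155 TPM by coding length, while that of all protein-coding genes was 7.10, 6.73 and 7.72 TPM. By coding length the highest members were COX7C (1219 TPM), NDUFA4 (874 TPM), UQCRH (774 TPM), ATP5F1B (602 TPM) and ATP5ME (562 TPM). ATP5F1B was 5.84-fold above ATP5F1A by the union of exons and 1.25-fold above it by coding length. Complex I had the lowest median by the union of exons, and complex II by the canonical transcript (93.2 TPM) and by coding length (90.1 TPM).

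**Figure D3:**
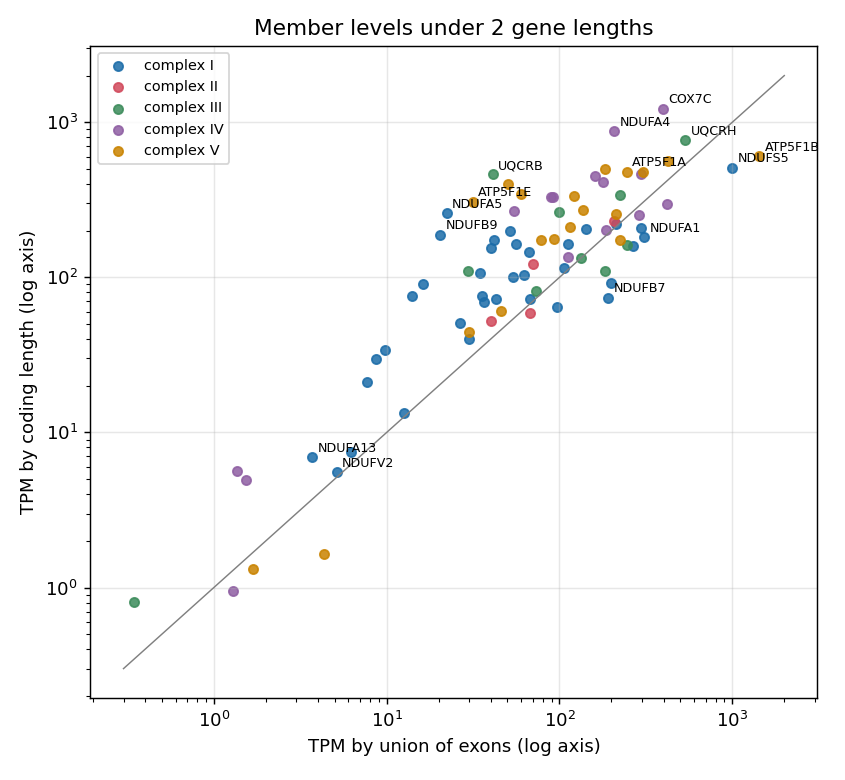
Mean level of each member with reads, in TPM by the union of exons (horizontal) and by coding length (vertical), on log axes with a line of equal values and colors for the complexes. UQCRB, NDUFA5, NDUFB9 and ATP5F1E lie far above the line, and ATP5F1B and NDUFB7 lie below it.

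The members with few reads were compared by how much of their canonical transcript lies in exons of another gene on the same strand, since many counting tools discard reads that fall in several genes. At least 60% was shared in 9 of the 89 members, and 4.74% of all protein-coding genes shared as much. Of the 9, NDUFV2 shared 89.965%, NDUFA13 83.9%, NDUFA7 77.9%, NDUFB8 72.0%, SDHA 69.4%, NDUFA11 68.2% and ATP5PO 63.8%, and the read-through genes ATP5MF-PTCD1 and NDUFC2-KCTD14 lay wholly in other genes. The first 7 had a median of 296 reads per kb of canonical transcript, summed over the replicates, with a range from 119 to 1021. The 61 members with less than 10% shared, again without isoform and read-through genes, had a median of 2377. The 6 members that shared at least 20% on the opposite strand and under 10% on the same strand had a median of 2560. Among all protein-coding genes with at least 10 reads, the corresponding medians were 58.2 for 60% or more shared and 219 for under 10%, and without that minimum they were 1.80 and 102. By the union of exons and either strand, 34 members shared at least 10%, and those whose levels are not given elsewhere were UQCR10 (224 TPM), ATP5PD (138 TPM), ATP5PF (116 TPM), NDUFA2 (112 TPM), UQCRQ (99.1 TPM), COX6C (92.3 TPM), NDUFB3 (54.1 TPM), NDUFB2 (41.7 TPM), NDUFC1 (39.95 TPM), NDUFB8 (12.6 TPM), NDUFA11 (8.72 TPM), NDUFA9 (7.69 TPM), NDUFA7 (6.18 TPM), ATP5MF-PTCD1 (4.34 TPM) and COX6B2 (1.36 TPM). For 6 of the 7, the gene that shares most of the canonical transcript was itself nearly without reads, with 0 counts for those of NDUFV2, NDUFA7 and NDUFB8, 3 for NDUFA13, 2 for NDUFA11 and 12 for ATP5PO in all libraries together. The gene that shares the exons of SDHA was not among the genes with counts, so its reads are unknown. Whether the annotation used for counting held it is also unknown. The partners of the read-through genes did have reads, with 1065 on PTCD1 and 474 on NDUFC2. The part of the shared exons in the low counts was not tested, since how the reads were assigned to genes is not given in the sources used here, neither the tool nor the strand setting.

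**Figure D4:**
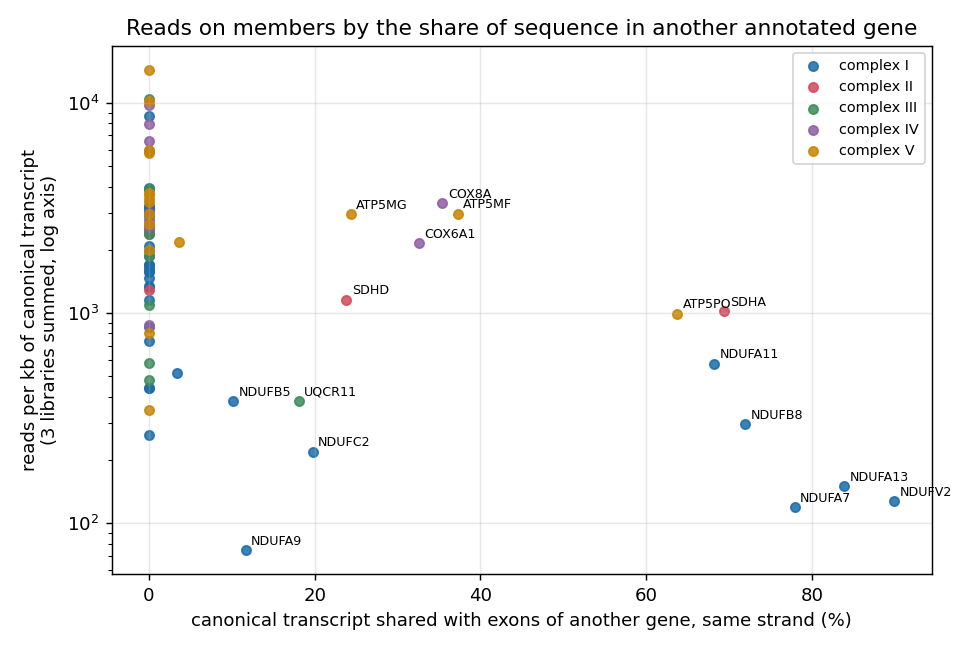
Reads per kb of canonical transcript, summed over the 3 libraries (log axis), against the percentage of that transcript in exons of another gene on the same strand, for the 77 members without isoform and read-through genes. The 7 genes at 60% or more lie between 119 and 1021 reads per kb, and most of those at 0% lie above 1000.

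Other copies of the same sequence were counted in the genome. Of the 50-base words of a canonical transcript, a median of 0.591% occurred elsewhere in the genome. The share was 20% or more in 8 members, namely SDHC (61.1%), COX6A1 (59.8%), SDHD (50.3%), UQCRH (33.4%), NDUFV2 (30.9%), UQCRFS1 (22.8%), SDHA (21.3%) and UQCRHL (21.1%). With words of 36 bases 15 members reached it, and with 75 bases 5 did. GENCODE names 188 pseudogenes after 49 of the members, 17 of them after COX6C. Of these, 138 had no read, and all 188 together had 776 reads, or 0.476% of the reads on their parents. The highest relative to its parent was NDUFV2P1, a processed pseudogene on chromosome 19, which had 30, 37 and 15 reads, or 75.2% of the reads on NDUFV2. The next was SDHAP4, a duplicated copy on chromosome 3, with 13.0% of the reads on SDHA.

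The replicates were close for most members. Among the 73 with at least 100 counts in each library, the median coefficient of variation of TPM was 5.74%, against 3.83% from counting alone. It was 3.39% for replicates 1 and 2 without replicate 3. A chi-square of the counts was taken over 81 members for replicates 1 and 2, 81 for 1 and 3, and 80 for 2 and 3. Per degree of freedom it was 1.84, 2.86 and 3.56, respectively, and sampling noise alone gives a value near 1. The median log2 ratio of replicate 3 to the mean of the others was -0.04 for the 73 members and 0.00 for 9386 protein-coding genes with as many counts. Across the 73 members, which share the libraries, the ratio had a Pearson correlation of 0.323 and a Spearman correlation of 0.129 with the GC content of exons, and across the 9386 genes 0.463 and 0.418. The GC-rich genes NDUFB7 (64.9% GC), NDUFS7 (61.4%), NDUFS8 (59.3%) and ATP5F1D (65.0%) had log2 ratios of 0.51, 0.57, 0.41 and 0.31. Other GC-rich members had negative ratios, as CYC1 (64.1% GC, -0.06), NDUFB10 (58.6%, -0.18), COX8A (57.9%, -0.17) and UQCR11 (56.8%, -0.23). Of the 12 members with a GC content of 55% or more, 6 were higher in replicate 3, with a median log2 ratio of 0.05. COX6A1 had a ratio of 0.47 at 45.4% GC. It had 98.1, 101 and 135 TPM in replicates 1, 2 and 3. Among members above the lower tercile of the members' own mean TPM, the coefficient of variation was largest in NDUFB7 (20.9%), COX6A1 (18.5%), ATP5F1D (14.4%), SDHD (13.3%) and NDUFA8 (12.8%). Below that tercile, isoform, copy and read-through genes aside, it was 24.5% in NDUFA13, 23.2% in NDUFA7, 22.7% in NDUFS7, 19.9% in NDUFB8 and 15.8% in NDUFS8. SDHD was highest in replicate 2, at 80.5 TPM against 66.6 and 62.8, and NDUFA8 in replicate 1, at 225 TPM against 198 and 174.

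**Figure D5:**
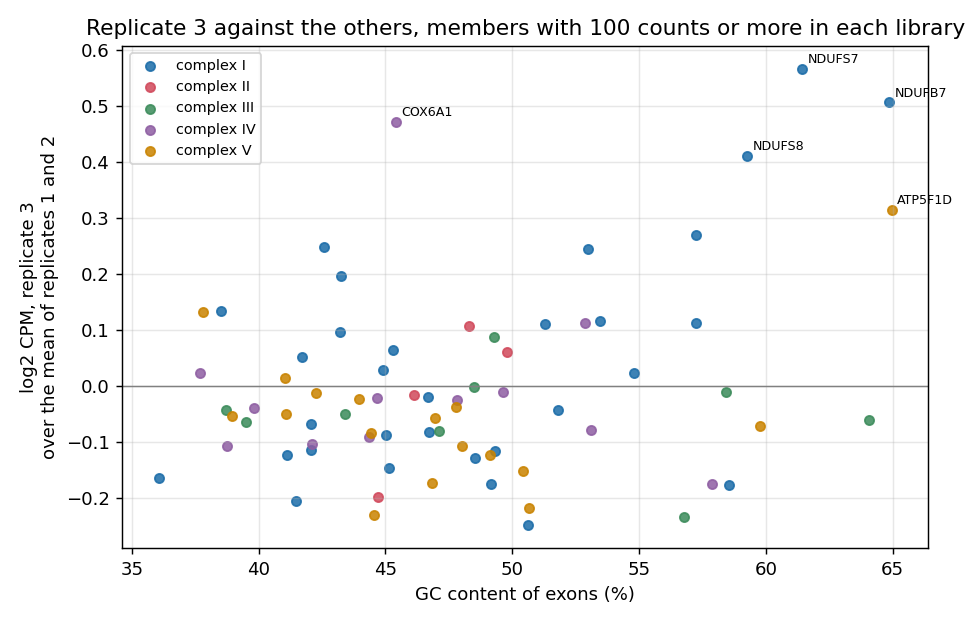
Log2 ratio of the CPM (counts scaled by library total) of replicate 3 to the mean of replicates 1 and 2 against the GC content of exons in percent, for the 73 members with at least 100 counts in each library. NDUFS7, NDUFB7, NDUFS8 and ATP5F1D lie above 0.3 at high GC content, CYC1, NDUFB10, COX8A and UQCR11 lie below 0 there, and COX6A1 lies above 0.4 at 45.4%.

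The 13 subunits of the same complexes that the mitochondrial genome encodes had a higher median on the TPM scale, by an amount that depended on the length used. Their median was 2184 TPM by the union of exons, 1319 TPM by the canonical transcript and 654 TPM by coding length. The nuclear members had medians of 67.3, 131 and 155 TPM. The sums below are by the union of exons alone. The 13 mitochondrial subunits held 0.655 ± 0.143% of all counts (SD, n = 3), against 0.698% for the nuclear members. Their levels ranged from MT-ND6 at 1099 TPM to MT-CO2 at 4925 TPM, and their sum was 25633, 30768 and 38328 TPM in replicates 1, 2 and 3. The sum of the nuclear members was 12182, 12053 and 11569 TPM. The SD was thus 6386 TPM on a mean of 31576 for the mitochondrial sum and 323 TPM on a mean of 11935 for the nuclear sum. The ratio of the nuclear to the mitochondrial sum was 0.475, 0.392 and 0.302. By complex, the 7 mitochondrial subunits of complex I summed to 12423 ± 2012 TPM and the nuclear ones to 3700 ± 160 TPM (SD, n = 3). The 3 mitochondrial subunits of complex IV summed to 11849 ± 2808 TPM and its nuclear members to 2490 ± 68.8 TPM (SD, n = 3).

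The factors that assemble the complexes are mostly not part of the finished enzymes. The 55 assembly factors of the listed genes that were found in the files had a median of 25.9 TPM, and 26 were in the high class. For complex I, they ranged from NDUFAF6 at 2.71 TPM to TIMMDC1, which helps build the membrane arm, at 90.4 TPM. For complex II, they ranged from SDHAF4 at 16.5 TPM to SDHAF3 at 46.9 TPM, and for complex III from UQCC6 at 9.21 TPM to TTC19 at 53.8 TPM. For complex IV, they ranged from COX19 at 5.98 TPM to COA4 at 105 TPM. For complex V, they ranged from ATPAF2 at 8.78 TPM to ATPAF1 at 44.2 TPM. The 55 genes also count ATP5IF1, the inhibitor of the ATP synthase, which was listed with complex V and had 124 ± 0.734 TPM (SD, n = 3). The carrier cytochrome c (CYCS), which the rule leaves out, had 187 ± 7.93 TPM, and NDUFAB1, the acyl carrier subunit of complex I, had 144 ± 1.38 TPM (SD, n = 3). Of 12 regulators of mitochondrial genes, 9 were in the high class. The factors that bind the words searched in promoters were all measured, with NRF1 at 30.2 ± 3.98 TPM, GABPA at 38.7 ± 0.758 TPM and YY1 at 77.7 ± 1.55 TPM (SD, n = 3). Among the coactivators of the PGC-1 family, PPRC1 had 122 ± 7.95 TPM, PPARGC1B 20.5 ± 0.742 TPM and PPARGC1A, the form prominent in muscle and brown fat, 2.18 ± 0.161 TPM (SD, n = 3).

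NRF1 and the ETS factor GABP are known as activators of respiratory chain genes, and their words were looked for in promoters. The promoters were those of RefSeq on GRCh38.p14, from 250 bases before to 50 bases after each start site, with 71 of the 89 members matched. The promoter stretches below are shown because they carry the NRF1 word GCGCANGCG on either strand before the start site, in the highest such member of each complex among those matched. Capitals mark every occurrence of the word within the stretch, with overlapping words in SDHD and separate ones in UQCRC1. They lie at chr5:1801336-1801395 on the plus strand (NDUFS6), chr11:112086739-112086798 on the plus strand (SDHD), chr3:48609647-48609706 on the minus strand (UQCRC1), chr12:120437869-120437928 on the plus strand (COX6A1) and chr4:674320-674379 on the minus strand (ATP5ME).
NDUFS6: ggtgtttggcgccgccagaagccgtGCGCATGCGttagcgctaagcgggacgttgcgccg
SDHD: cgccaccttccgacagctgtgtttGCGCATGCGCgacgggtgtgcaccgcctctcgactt
UQCRC1: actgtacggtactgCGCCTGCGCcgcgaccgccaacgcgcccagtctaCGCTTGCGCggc
COX6A1: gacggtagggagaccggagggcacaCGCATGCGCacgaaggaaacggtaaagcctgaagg
ATP5ME: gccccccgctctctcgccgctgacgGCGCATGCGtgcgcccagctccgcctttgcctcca
The word GCGCANGCG was found in 23 of the 71 members (32.4%), in 9.02% of all 27305 genes of the table and in 18.9% of genes of the high class. The ETS word CCGGAAG was found in 21 members (29.6%), in 12.2% of all genes and in 26.2% of the high class. The YY1 word AAGATGGCG was found in 9 members (12.7%), in 2.14% of all genes and in 6.46% of the high class. At least 1 of the 3 words was present in 42 of the 64 matched members without isoform and read-through genes, and in 1 of the 7 isoform and read-through genes, COX8C. It was present in 20.5% of all genes and 43.97% of the high class.

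The words had different places. The NRF1 and ETS words began at median positions of -65.5 and -46.5 relative to the start site, respectively, where negative positions lie before it. Of the 10 YY1 words, 8 began between 11 and 26 bases after it, in NDUFA9, SDHB, NDUFA7, NDUFB8, NDUFS7, NDUFS4, UQCRC1 and NDUFA6. CCAAT was found in 35.2% of members, 39.7% of all genes and 45.4% of the high class. The TATA box word TATAAA was found in 9.86%, 13.99% and 7.71% of them, respectively. No word contains another, and both strands were searched. A match describes the letters only, and the promoter of ATP5F1B was not among those matched.

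The members were also described by their position. Chromosome 19 held 12 of them, among them NDUFB7, NDUFS7, NDUFA13, NDUFA7, NDUFA11, COX6B1 and ATP5F1D, and chromosome 11 held 8. The share of all protein-coding genes on these chromosomes was not computed, so the counts do not show clustering of the members. The start of another protein-coding gene lay within 1000 bases upstream on the opposite strand in 20 of the 89 members (22.5%), in 8.52% of protein-coding genes and in 12.9% of the high class. The nearest were SDHD with TIMM8B, 26 bases apart, NDUFA3 with OSCAR at 36 bases, and NDUFB5 with MRPL47 and NDUFS6 with MRPL36, both at 41 bases. TIMM8B helps import mitochondrial proteins, and MRPL47 and MRPL36 are proteins of the mitochondrial ribosome. The levels were unequal in some of these pairs and closer in others. NDUFS6 had 295 TPM beside MRPL36 at 71.2 TPM, and NDUFB5 had 34.8 TPM beside MRPL47 at 188 TPM. NDUFA8 had 199 TPM beside MORN5 without a read. In contrast, NDUFB1 had 52.0 TPM beside CPSF2 at 61.0 TPM, and NDUFA13 had 3.72 TPM beside TSSK6 at 2.81 TPM.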

How the data were processed

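The authors sequenced total RNA of 3 H9 replicates after depletion of ribosomal RNA, trimmed the reads (Trim Galore 0.4.4), aligned them to GRCh38 (TopHat2 2.1.1), and deposited raw counts of reads for 58051 Ensembl genes, with no normalization. Cufflinks 2.2.1 is also named in the processing notes. Which tool counted the reads, on which annotation and with which strand setting, is not given in the sources used here.

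Counts were joined to GENCODE release 44 (56948 genes matched, and the rest held at most 0.294% of counts) and converted to TPM by the length of the union of exons. Canonical transcripts and coding lengths gave alternatives, chosen after seeing the data. Classes followed the study's methods. The replicate 3 ratio used CPM with a prior of 0.5 counts. Repeated words were counted on both strands of GRCh38. Conversion and classes were run on counts simulated from the same levels and lengths. That checks the code only and cannot test the choice of length or how reads were assigned. A count of 0 was taken to allow 3 counts; intervals of this kind cover counting error alone, because PCR copies are not independent molecules. Depth limits members with under 40 reads most. edgeR 4.0.16 (TMM) and DESeq2 1.42.0 (size factors) in R 4.3.3 were used for scaling only. The rest used numba 0.67.0, pandas 2.3.3, matplotlib 3.10.9, scipy 1.17.1 and numpy 2.4.6 in Python 3.11.15.

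The members, lists and comparisons were chosen with earlier results of these data known. Any member could be named; values were given for the 5 highest and 5 lowest by mean TPM, the catalytic core, the isoforms with their partners, members with 10% or more of their exon length shared, those with the largest spread, and the ends of each pathway list. Other genes were named after their values were seen. No test between groups was made. The values of 1 member are not reported here, and it is left out of the plot of levels.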

Additional observations from a re-analysis of the deposited data

Results flagged for a closer look

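Reads on 4 annotated pseudogenes named after members, outside the 89 genes of the report, exceeded 3 counts in every replicate, which is the limit that a count of 0 allows. They were SDHAP4 (108, 149 and 101 reads in replicates 1, 2 and 3), SDHAP1 (36, 48 and 35 reads), NDUFV2P1 (30, 37 and 15 reads) and SDHAP3 (21, 30 and 26 reads). SDHA itself had 905, 1037 and 808 reads, and these 3 of its 4 named copies had 13.0%, 4.33% and 2.80% of its reads. The other named copy of SDHA, SDHAP2, had 0 reads in every replicate. Whether the reads on these pseudogenes came from the copies or from the parent genes was not tested.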

How the results depend on the processing

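Each result was recomputed under the alternatives listed for it, 247 values in all, of which 181 moved by less than the spread between replicates, or by less than 1.5 times for counts and the coefficient of variation, or stayed within the binomial error for promoter words. Some of the 181 could not move, so they are no measure of stability. Scaling factors cancel in the share of TPM and in every isoform share. The mitochondrial total cancels in the isoform shares. A tissue isoform with 0 reads keeps a share of 0 under any length, scaling or choice of replicates. The promoter words, the repeated words and the ratio of replicate 3 have only alternatives of their own. With members sharing 10% or more of their exons left out, the shares of COX6A2, COX6B2 and COX8C could not be given, because a gene of the pair was dropped. No paired analysis was possible because there is 1 condition and the replicates have no partner in another group. The number of members in the high class was between 57 with CPM and 74 with all genes classified, each with its own class boundaries. With the 34 members that share 10% or more of their exons left out of the 89, 45 of the rest were in the high class. The median log2 ratio of replicate 3 kept its sign, between -0.09 with DESeq2 size factors and -0.04.

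With the length of the longest transcript, the members held 1.32% of TPM with a median of 88.1 TPM, and the medians of complexes I to V were 49.2, 108, 126, 147 and 153 TPM. With exon length freed of bases shared with other genes, the share was 1.33%, the median 72.9 TPM, and the medians of complexes I, III, IV and V were 55.3, 122, 105 and 150 TPM. With CPM, the share was 0.698%, the median 52.7, and the medians of complexes III, IV and V were 74.1, 63.5 and 71.5 CPM. Without mitochondrial genes in the total, the share was 1.24%, the median 70.1 TPM and that of complex III 121 TPM. With members of less than 10% shared exon length, the share was 0.928%, the median 97.1 TPM, and the medians of complexes I to V were 81.8, 138, 133, 125 and 107 TPM. With genes of at least 1 TPM, the medians were 73.1 TPM over members, 133 in complex III and 160 in complex IV. Chosen after seeing the data, the canonical transcript gave a share of 1.59%, a median of 131 TPM and medians of 116, 93.2, 168 and 226 TPM in complexes I, II, IV and V, and coding length gave 1.78%, 155 TPM and medians of 92.1, 90.1, 148, 252 and 273 TPM in complexes I to V.

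The tissue isoform shares stayed at or below 1.28% in each complex IV pair. COX6B2 made 1.24% of its pair by CPM, 1.21% by coding length and 0.648% without shared bases. COX7A1 made 0.220% by CPM, 0.231% by coding length and 0.299% by the canonical transcript. NDUFA4L2 made 1.28% by the canonical and 1.01% by the longest transcript, and UQCRHL 0.197% by the canonical transcript. ATP5MGL, at 3.18% as reported, made 1.23% by the longest transcript, 0.441% by the canonical transcript, 0.315% by CPM and 0.324% by coding length. With 1 read added to each gene, COX4I2 made 0.361%, COX6A2 0.733%, COX7A1 1.08%, COX7B2 0.534% and COX8C 0.172%.

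Leaving out each replicate gave 66 to 67 high members, a share between 1.18% and 1.21%, a median between 65.0 and 68.5 TPM, and a median coefficient of variation from 3.39% without replicate 3 to 6.23% without replicate 1. Within 200 bases before the start site, 1.41% of member promoters had the YY1 word. Words of 36 and 75 bases gave 15 and 5 members with many repeated words. The cause of these moves was not tested beyond the change each alternative makes. Genes with under 40 reads in all are limited by depth.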
